A study of Mus musculus with 8 samples.

Results

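Tfrc, which encodes the transferrin receptor CD71, was followed here together with 8 further genes of cellular iron handling (Slc11a2, Steap3, Fth1, Ftl1, Ncoa4, Aco1, Ireb2 and Slc25a37) in DC-restricted progenitors (CDPs) of lean and obese mice. Tfrc was chosen because its counts were higher after high fat feeding, and the other genes because of their role in iron uptake, storage and sensing. All 9 were among the 16119 genes of the authors' count table, and all 9 passed the filter on low counts that left 15837 genes. Because that difference chose Tfrc, its diet values are given as a description, without a test.

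CDPs were sorted from bone marrow (BM) of C57BL/6 mice (C57BL/6J in the methods) on a high fat diet (HFD, 60 kcal% fat, 16 weeks of feeding, labelled DIO) or of age-matched control mice (CF, 10 kcal% fat, labelled DIO-Control). Only male mice were used. The paper's methods give the mice of both diets as 16 weeks old when bought, and its results give the feeding as up to 16 weeks. Each replicate held about 50000 cells, gated as lineage-negative, c-Kit intermediate, Sca-1 low, CD115-positive and Flt3-positive. There were 4 replicates per diet, described as independent, and the sources used here do not say whether one replicate was 1 mouse or a pool, so p-values measure the spread between these libraries.

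Iron reaches dividing blood cells mainly as transferrin, which binds TFRC at the surface and is taken into endosomes. There STEAP3 reduces the iron and SLC11A2 (DMT1) carries it into the cytosol, from where mitoferrin 1 (SLC25A37) brings it into mitochondria for heme and iron-sulfur clusters. What is not used is stored in ferritin, a shell of heavy (FTH1) and light (FTL1) chains, and is released when NCOA4 delivers ferritin to lysosomes. The iron regulatory proteins ACO1 and IREB2 bind a short RNA hairpin, the iron-responsive element (IRE), when iron is scarce. Binding in the 3′ UTR protects Tfrc mRNA from decay, and binding in the 5′ UTR blocks translation of ferritin mRNA without lowering its amount.

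The hairpins are shown because they are what Tfrc and the ferritin genes share in sequence. Annotated UTRs (GENCODE vM21, GRCm38) were searched on the sense strand for a C, any 5 bases, the loop CAGTGN and 5 further bases. The 5 bases on each side of the loop had to pair, with at most 1 G-U pair, and the last loop base was not G. It found 4 matches in the 3′ UTR of Tfrc on chromosome 16 and 1 each in the 5′ UTRs of Fth1 and Ftl1. Each match of 17 bases is written with 6 bases on either side, and capitals mark the 6-base loop.
Tfrc, chr16:32631225-32631241, plus strand: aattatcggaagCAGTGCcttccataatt
Tfrc, chr16:32631604-32631620, plus strand: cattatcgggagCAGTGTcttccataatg
Tfrc, chr16:32631669-32631685, plus strand: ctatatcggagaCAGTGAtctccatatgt
Tfrc, chr16:32631716-32631732, plus strand: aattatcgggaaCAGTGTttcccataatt
Fth1, chr19:9982738-9982754, plus strand: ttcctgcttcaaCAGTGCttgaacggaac
Ftl1, chr7:45459785-45459801, minus strand: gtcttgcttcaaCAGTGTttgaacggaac
Of 21674 protein-coding genes, 0.226% held a match in either UTR, 0.175% in the 3′ UTR and 0.0508% in the 5′ UTR. In the wider iron lists described further on, Slc40a1 and Alas2 held 1 match each in the 5′ UTR and Bola3 held 1 in the 3′ UTR. Slc11a2 held none, which says only that these letters are not in its annotated UTRs. A match is a description of sequence, and binding was not measured.

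Total counts ranged from 28203651 to 48409689 per library, and the scaling factors (TMM, which adjusts for library size and composition) from 0.80 to 1.18. Non-coding genes of up to 200 nt of exon took 8.50% to 13.6% of the counts in HFD and 21.7% to 33.9% in CF. Scaled by library size alone, the median log2 fold change of all genes moved from 0.055 to 0.25. The markers of the sorted cells were present, and a list of 10 CDP genes, among them Flt3, Csf1r, Kit and Irf8, was summed in CPM (counts scaled by library size and TMM factor). The sum was 1380 to 1610 CPM in HFD replicates 2 to 4 and 1220 to 1320 CPM in CF. Without HFD replicate 1, 4 of the 10 had a positive log2 fold change, with a median of -0.11. HFD replicate 1 stood apart with 819 CPM on this list, and it exceeded every other library in 15 of 15 erythroid markers and 13 of 13 neutrophil markers. Its erythroid markers summed to 919 CPM, against 131 to 216 CPM in the other HFD replicates and 119 to 206 CPM in CF. Its neutrophil markers summed to 18200 CPM, against 1030 to 3370 CPM and 1970 to 6360 CPM. For this reason values without HFD replicate 1 are given beside those of all libraries. In sorted cells, more cells of a type and more RNA per cell cannot be told apart.

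Tfrc (ENSMUSG00000022797) is a plus-strand gene of chromosome 16 (GRCm38, 32608920 to 32632794) that overlaps no other annotated gene. It was covered by 4318 to 9547 counts per library. Its level was 257, 254, 203 and 232 CPM in HFD replicates 1 to 4 and 173, 137, 150 and 143 CPM in CF replicates 1 to 4. All 4 HFD libraries lay above all 4 CF libraries, with the nearest pair being HFD replicate 3 and CF replicate 1. HFD averaged 236 ± 25.0 CPM (SD, n = 4) and CF averaged 151 ± 15.5 CPM (SD, n = 4). The fold was 1.57, or 0.65 on the log2 scale (standard error 0.12). Of all genes compared, 2.58% had HFD libraries wholly above CF and 3.58% wholly below, and since Tfrc was chosen on this contrast nothing is read from that share. Without HFD replicate 1 the log2 fold change of Tfrc was 0.61, and with each library left out in turn it lay between 0.61 and 0.72. Scaled by library size alone it was 0.85, and relative to the median of all genes it was 0.59 with TMM and 0.60 with library size.

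**Figure D1:**
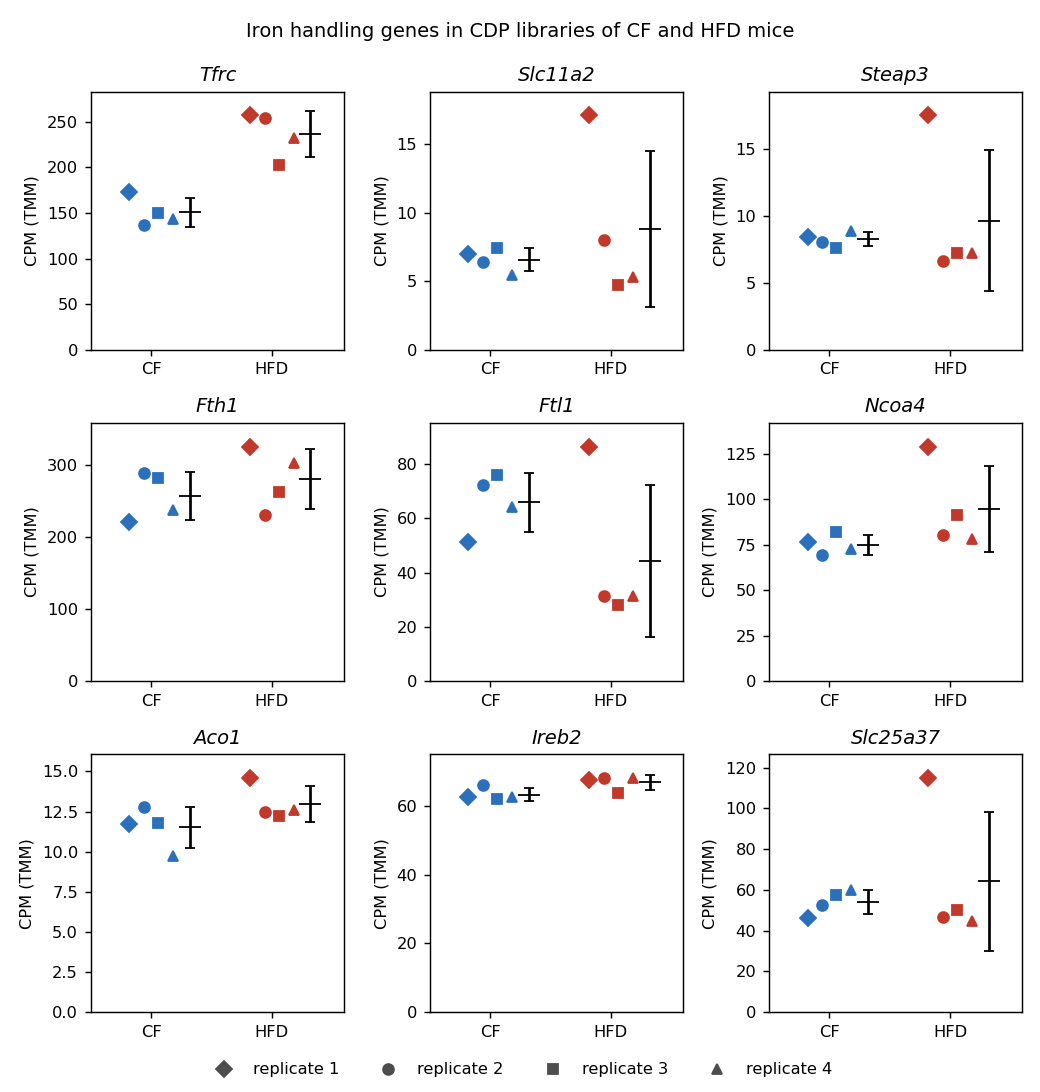
Level of the 9 iron genes in each library, in TMM-scaled CPM from a zero baseline, for CF (blue) and HFD (red). Symbols mark the replicate number, and the black bar is the mean ± SD of 4 replicates. Tfrc is 203 to 257 CPM in HFD and 137 to 173 CPM in CF, while for Slc11a2, Steap3, Ftl1, Ncoa4 and Slc25a37 the HFD spread comes mostly from replicate 1.

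Red cell precursors carry very high levels of Tfrc, so its values were set beside the erythroid list. The erythroid sums of HFD replicates 2 to 4 (131 to 216 CPM) overlapped those of CF (119 to 206 CPM), and HFD replicate 1 had 919 CPM. Slc4a1, the anion exchanger of red cells and the most abundant gene of the list, had 245 CPM in HFD replicate 1, 31.0 to 56.7 CPM in the other HFD replicates and 22.8 to 55.0 CPM in CF. Hbb-bs, a beta globin, had 76.3 CPM in HFD replicate 1 and 15.9 to 28.5 CPM in all other libraries. Tfrc also accompanies cell division, and 15 genes of DNA replication and mitosis summed to 2620 to 3090 CPM in HFD and 2530 to 2840 CPM in CF. Of these, 15 of 15 had a positive log2 fold change with a median of 0.16, against 59.7% positive and a median of 0.055 among all genes tested. By edgeR 0 of the 15 were called and 0 had an unadjusted p below 0.05, against 0.423% and 8.56% of all genes. Mki67, a marker of cycling cells, had 896 to 1290 CPM in HFD and 960 to 1160 CPM in CF, and Top2a, a topoisomerase of dividing cells, 488 to 601 and 515 to 561 CPM. Of 7 markers of plasmacytoid DCs, edgeR called 0 with all libraries, and their sum was lowest in HFD replicate 1, where Tfrc was highest. All 7 had a positive log2 fold change, with a median of 1.22 (1.5 without HFD replicate 1), and 5 of the 7 were higher at an unadjusted p below 0.05. Siglech, a lectin of these cells, had 33.0 to 62.2 CPM in HFD replicates 2 to 4, 13.3 CPM in HFD replicate 1 and 13 to 17.1 CPM in CF (log2 fold change 1.47; edgeR, adjusted p = 0.20). Spib, a transcription factor of the lineage, had 27.1 to 60.5 CPM in HFD and 12.3 to 23.2 CPM in CF (1.40; edgeR, adjusted p = 0.11). Siglech, Ccr9, Spib and Ly6d were called higher without HFD replicate 1 (edgeR, adjusted p of 0.016 to 0.045), where 0.214% of all genes were called higher. The more abundant Runx2 and Tcf4 stood at 0.26 and 0.040, and the list summed to 347 to 804 CPM in HFD and 442 to 506 CPM in CF. These 4 genes, and Cd79a, Vpreb1 and Igll1 among the B cell genes that follow, were named after their values were seen.

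Of 8 B cell markers, edgeR called 0, 7 had a positive log2 fold change with a median of 0.74 (0.50 without HFD replicate 1), and 5 were higher at an unadjusted p below 0.05. Over all genes 0.423% were called, 59.7% had a positive value and 510 of 15837 were higher at that p. The most abundant, Pax5 and Ebf1, transcription factors of the B lineage, had 4.54 to 38.9 and 16.0 to 34.6 CPM in HFD and 16.4 to 27.7 and 16.0 to 25.3 CPM in CF (log2 fold changes 0.28 and 0.42). The diets did not overlap for Cd79a, a chain of the B cell receptor complex (5.44 to 10.2 CPM in HFD and 3.79 to 5.12 CPM in CF), and for Vpreb1, of the surrogate light chain (2.20 to 3.86 and 0.936 to 2.08 CPM), where 6.16% of all genes had no overlap. Igll1, also of the surrogate light chain, had 1.94 to 4.28 CPM in HFD and 2.96 to 4.19 CPM in CF (-0.32). The sum was lowest in HFD replicate 4. The list summed to 48.4 to 112 CPM in HFD and 50.5 to 79.8 CPM in CF. Among macrophage markers Cd163 had 9.92 to 29.7 CPM in HFD and 22.2 to 26.7 CPM in CF, and Vcam1 1.5 to 36.4 and 3.33 to 12.9 CPM. Of 7 tested, 4 had a positive log2 fold change, with a median of 0.76 (0.11 without HFD replicate 1). By edgeR 0 of them were called and 1 was higher at an unadjusted p below 0.05. Among T or NK cell markers Nkg7 had 7.55 to 24.6 CPM in HFD and 10.5 to 18.3 CPM in CF, and Cd8a 0.738 to 2.43 and 0.859 to 2.33 CPM. Of 5 tested, 3 had a positive log2 fold change, with a median of 0.01 (0.25 without HFD replicate 1). Here too edgeR called 0, and 1 was higher at an unadjusted p below 0.05. Markers of macrophages summed to 35.1 to 91.1 CPM in HFD and 33.3 to 60.1 CPM in CF, those of T or NK cells to 12.6 to 33.2 and 13.5 to 23.3 CPM, and no measured marker was at 0 in all libraries. Neutrophil sums were lower in HFD replicates 3 and 4 than in every CF library. S100a8 and S100a9, the most abundant of that list, had 5150 and 5110 CPM in HFD replicate 1. S100a8 lay at 245 to 901 CPM in HFD replicates 2 to 4 and 539 to 1780 CPM in CF, and S100a9 at 283 to 940 and 496 to 1910 CPM. The part of any of these cell types, or of dividing cells, in the Tfrc difference was not tested.

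**Figure D2:**
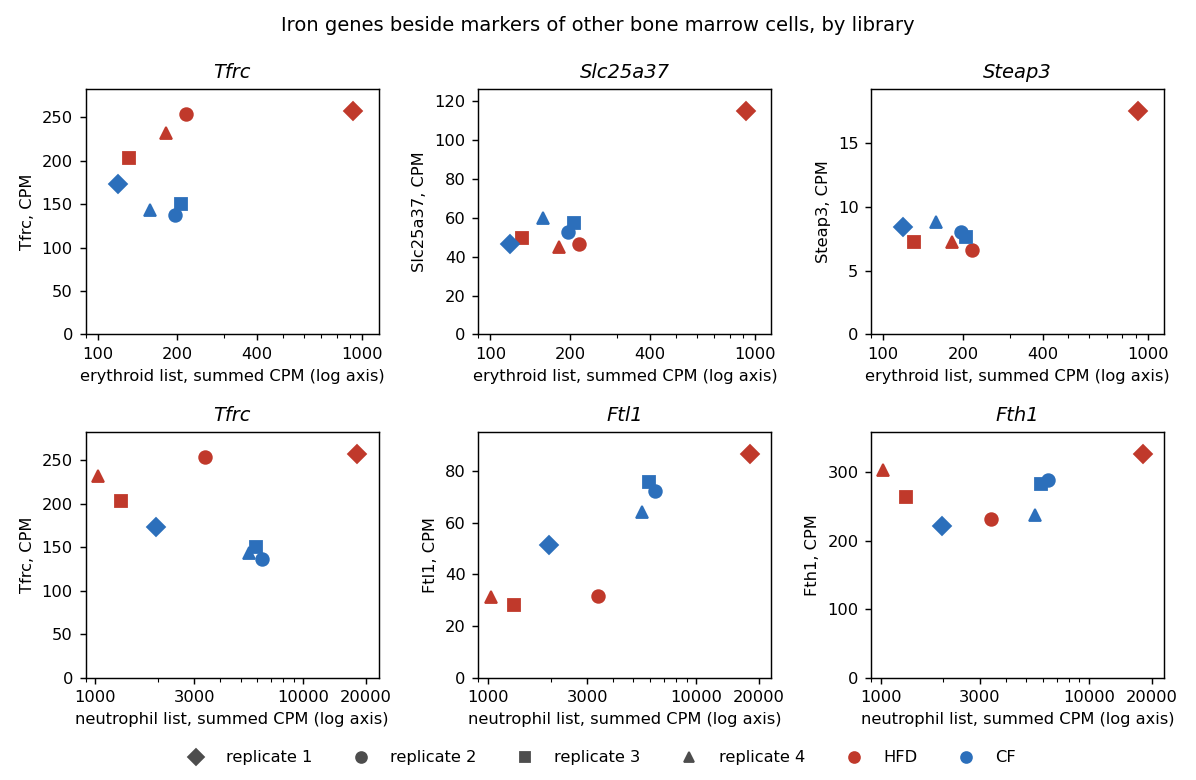
Iron genes against summed markers of other BM cells in each library (CPM; the marker axis is logarithmic, the gene axis starts at 0). The upper row shows Tfrc, Slc25a37 and Steap3 against 15 erythroid genes, the lower row Tfrc, Ftl1 and Fth1 against 13 neutrophil genes. HFD replicate 1, the red diamond, lies far right in each panel, at 919 CPM of erythroid and 18200 CPM of neutrophil markers, and the other libraries lie at 119 to 216 CPM and 1030 to 6360 CPM.

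The other 8 genes did not share this separation. By edgeR's quasi-likelihood test over all genes, 0 of the 8 were called at an adjusted p below 0.05, and 0 had an unadjusted p below 0.05, against 8.56% of all genes tested. DESeq2, limma voom and a linear model for each gene also called 0 of the 8. Over all 15837 genes edgeR called 0.423%, all of them lower in HFD. HFD and CF libraries overlapped for all 8 genes, against 6.16% of all genes compared whose libraries did not overlap. Of the 8 log2 fold changes 7 were positive, and HFD replicate 1 held the highest value of all libraries for 7 genes, Ireb2 being the exception.

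Slc11a2 (ENSMUSG00000023030), the endosomal iron transporter, lies on the minus strand of chromosome 15 from 100387898 to 100425072. It had 17.1, 7.99, 4.75 and 5.34 CPM in HFD replicates 1 to 4 and 6.98, 6.39, 7.43 and 5.46 CPM in CF. Only HFD replicate 1 stood clear of the CF range by a wide margin, and HFD replicates 3 and 4 lay below it. The log2 fold change was 0.42 (standard error 0.39; edgeR, adjusted p = 0.86), and it turned to -0.12 without HFD replicate 1. Steap3 (ENSMUSG00000026389), the ferrireductase on chromosome 1 from 120190757 to 120272705, had 17.5 CPM in HFD replicate 1 and 6.61, 7.24 and 7.23 CPM in the others, against 8.42, 8.05, 7.62 and 8.84 CPM in CF. Here the other HFD replicates all lay below all CF replicates, as they did for 6.63% of all genes compared without HFD replicate 1. Its log2 fold change was 0.23 (standard error 0.31; edgeR, adjusted p = 0.93) with all libraries and -0.23 (standard error 0.13; edgeR, adjusted p = 0.46) without HFD replicate 1.

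Slc25a37 (ENSMUSG00000034248), mitoferrin 1, lies on the minus strand of chromosome 14 from 69241848 to 69285112. It is best known from erythroid cells, where heme synthesis needs much mitochondrial iron. It had 115, 46.8, 49.9 and 44.9 CPM in HFD replicates 1 to 4 and 46.4, 52.7, 57.6 and 59.9 CPM in CF. HFD replicate 1 lay far above all other libraries, and it was the library with the erythroid sum of 919 CPM. The log2 fold change was 0.25 (standard error 0.30; edgeR, adjusted p = 0.91) and became -0.20 (standard error 0.11; edgeR, adjusted p = 0.45) without that library. Over 18 alternatives the adjusted p of Slc25a37 stayed between 0.28 and 1.0. The gene overlaps the annotated transcripts Gm20236, Gm27222, Gm27223 and Gm31748, so its counts are uncertain to that extent.

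Fth1 (ENSMUSG00000024661), the ferritin heavy chain with the ferroxidase site, lies on the plus strand of chromosome 19 from 9980598 to 9985098. It had 326, 231, 263 and 303 CPM in HFD and 221, 289, 283 and 238 CPM in CF. The diets overlapped, with means of 281 ± 42.0 CPM (SD, n = 4) and 258 ± 33.5 CPM (SD, n = 4). The log2 fold change of 0.12 was smaller than its standard error of 0.15 (edgeR, adjusted p = 0.91) and was 0.045 without HFD replicate 1.

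Ftl1 (ENSMUSG00000050708), the ferritin light chain on the minus strand of chromosome 7 from 45457944 to 45459884, had a value that depended on 1 library. It had 31.5, 28 and 31.3 CPM in HFD replicates 2 to 4, 86.5 CPM in HFD replicate 1, and 51.2, 72.4, 75.9 and 64.3 CPM in CF. HFD replicates 2 to 4 all lay below every CF library, and HFD replicate 1 lay above every CF library. With all libraries the log2 fold change was -0.57 (standard error 0.37; edgeR, adjusted p = 0.78). Without HFD replicate 1, Ftl1 fell by 1.12 on the log2 scale (standard error 0.14; edgeR, adjusted p = 0.018), to a fold of 0.459. In that comparison 1.26% of 15863 genes were called in either direction and 1.05% lower in HFD. HFD libraries were wholly below CF for 6.63% and wholly above for 6.38%. Over 20 alternatives the adjusted p of Ftl1 ranged from 0.0031 to 1.0.

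Neutrophil markers moved with Ftl1 in part, HFD replicate 2 having less Ftl1 and a higher sum than CF replicate 1. The 13 genes of that list summed to 5500 to 6360 CPM in CF replicates 2 to 4, 1970 CPM in CF replicate 1, 3370 CPM in HFD replicate 2 and 1330 and 1030 CPM in HFD replicates 3 and 4. Of the 13, 0 had a positive log2 fold change without HFD replicate 1, with a median of -1.37. The part of neutrophil RNA in the Ftl1 difference was not tested. Reads of Ftl1 are also hard to place, since 51.3% of the 75-base windows of its transcripts occur in transcripts of other genes, chiefly Ftl1-ps1, Gm10252, Gm15590 and Ftl2-ps. Windows were matched on either strand, and Gm10252 overlaps Ftl1 itself on the other strand. Gm22133 overlaps Ftl1 on the same strand. Ftl1-ps1 had 12 to 29.5 CPM in HFD and 14.9 to 21.0 CPM in CF, and it too was highest in HFD replicate 1. Summed with Ftl1-ps1, Ftl2-ps and Gm10252, Ftl1 stood at -0.44 on the log2 scale (edgeR, adjusted p = 0.83) and at -0.94 without HFD replicate 1 (edgeR, adjusted p = 0.026). Per exon length, Fth1 stood at 1.43 to 1.67 times the level of Ftl1 in the 4 CF libraries, at 1.46 times in HFD replicate 1 and at 2.84 to 3.73 times in HFD replicates 2 to 4. With the counts of Ftl1-ps1, Ftl2-ps and Gm10252 added to Ftl1 at its own length, the ratio was 0.990 in HFD replicate 1, 1.05 to 1.20 in CF and 1.82 to 2.38 in HFD replicates 2 to 4. These ratios were computed after the values were seen, and their difference between the diets was not tested.

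Ncoa4 (ENSMUSG00000056234), the receptor that takes ferritin to lysosomes, lies on the plus strand of chromosome 14 from 32159865 to 32179855. It had 129, 80.2, 91.3 and 78.1 CPM in HFD and 76.3, 69.4, 81.9 and 72.4 CPM in CF. All 4 HFD replicates were above the CF mean of 75 CPM, and HFD replicates 2 and 4 were within the CF range. Its log2 fold change of 0.34 (standard error 0.17; edgeR, adjusted p = 0.67) did not pass the test, and it was 0.15 (standard error 0.10) without HFD replicate 1. For Ncoa4, 16.9% of windows are shared with the annotated copy Gm6768, which had 51.8 to 82.9 CPM in HFD and 48.4 to 58.0 CPM in CF. For the remaining genes 0% to 6.55% of windows are shared, and for Tfrc, Aco1, Ireb2 and Steap3 none.

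Of the iron regulatory proteins, Ireb2 mRNA was measured with little spread, while Aco1 mRNA was highest in HFD replicate 1 and lowest in CF replicate 4. Aco1 (ENSMUSG00000028405, chromosome 4 from 40143081 to 40198338, plus strand), which is a cytosolic aconitase when it carries an iron-sulfur cluster, had 14.6, 12.5, 12.2 and 12.6 CPM in HFD and 11.7, 12.8, 11.8 and 9.75 CPM in CF. The diets overlapped for Aco1 in HFD replicates 2 to 4. Ireb2 (ENSMUSG00000032293, chromosome 9 from 54863789 to 54912530, plus strand), whose protein is degraded when iron is plentiful, had 67.6, 68.0, 63.6 and 68.1 CPM in HFD and 62.4, 66.1, 61.9 and 62.4 CPM in CF. Log2 fold changes were 0.18 (standard error 0.12; edgeR, adjusted p = 0.81) for Aco1 and 0.081 (standard error 0.079; edgeR, adjusted p = 0.88) for Ireb2, and 0.11 and 0.076 without HFD replicate 1. Without CF replicate 4 the log2 fold change of Aco1 was 0.10. The activity of both proteins is set after transcription and was not measured by these counts.

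**Figure D3:**
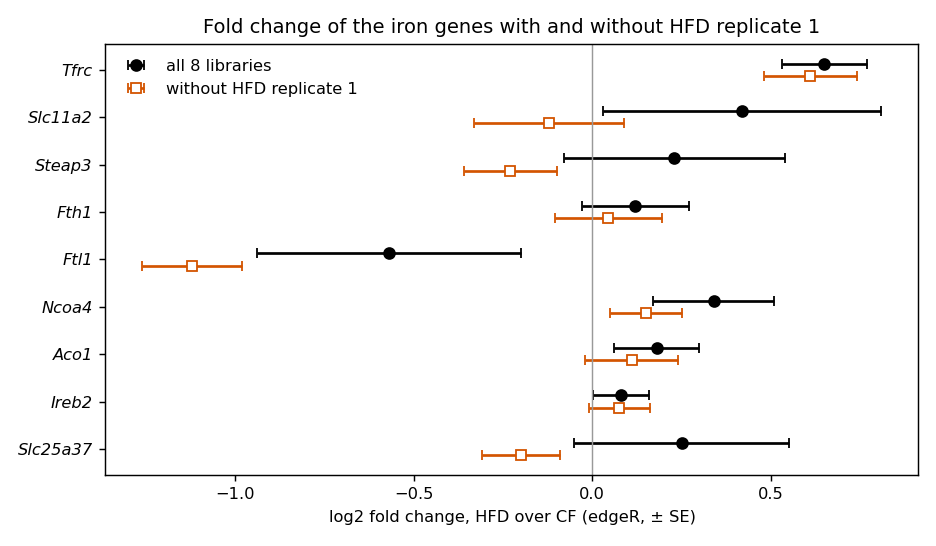
Log2 fold change of each member, HFD over CF, with its standard error from edgeR, for all 8 libraries (black circles) and without HFD replicate 1 (orange squares). Tfrc stays at 0.61 to 0.65, Ftl1 moves from -0.57 to -1.12, and Slc11a2, Steap3 and Slc25a37 change from positive to negative.

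Levels were compared between genes as RPKM, the TMM-scaled CPM per kilobase of exon. Fth1 was highest at 77.6 ± 10.7 RPKM (SD, n = 8), followed by Ftl1 at 41.1 ± 17.1 and Tfrc at 31.3 ± 8.01. Slc25a37 had 9.83 ± 3.87, Ncoa4 9.06 ± 2.05, Ireb2 6.86 ± 0.288, Aco1 2.72 ± 0.299, Steap3 1.56 ± 0.619 and Slc11a2 1.21 ± 0.626 RPKM. Neighbours in this order were compared over the 8 libraries by exact two-sided paired permutation tests, adjusted over 8 pairs. Fth1 was above Ftl1 in 8 of 8 libraries, by 1.03 on the log2 scale (exact p = 0.0078, the smallest possible, adjusted p = 0.013). With Ftl1-ps1, Ftl2-ps and Gm10252 added to Ftl1, Fth1 was above it in 7 of 8 libraries and by less. The size of this gap thus depended on how shared reads are placed. Tfrc was above Slc25a37 by 1.70 in 8 of 8 libraries (exact p = 0.0078, adjusted p = 0.013). Ncoa4 over Ireb2, Ireb2 over Aco1 and Aco1 over Steap3 also held in 8 of 8 libraries (exact test, adjusted p = 0.013 each), and Steap3 over Slc11a2 in 7 (exact test, adjusted p = 0.021). The order of Ftl1 and Tfrc was not resolved, with Ftl1 above in 5 of 8 libraries (exact test, adjusted p = 0.39), nor was that of Slc25a37 and Ncoa4, with Slc25a37 above in 4 (exact test, adjusted p = 0.48). With the longest annotated transcript as length, Ncoa4 and Ireb2 came before Slc25a37. Tfrc averaged 38.2 RPKM in HFD and 24.4 in CF, and Ftl1 33.1 and 49.2. In HFD replicate 1 Ftl1 remained above Tfrc, and in the other HFD replicates it lay below. With the same genes added to Ftl1, Tfrc stood at 0.989 to 1.12 times its level in HFD replicates 2 to 4, and Ftl1 was above in 6 of 8 libraries. Tfrc stood at 0.429 to 0.616 times the level of Fth1 in HFD and at 0.267 to 0.438 times in CF.

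**Figure D4:**
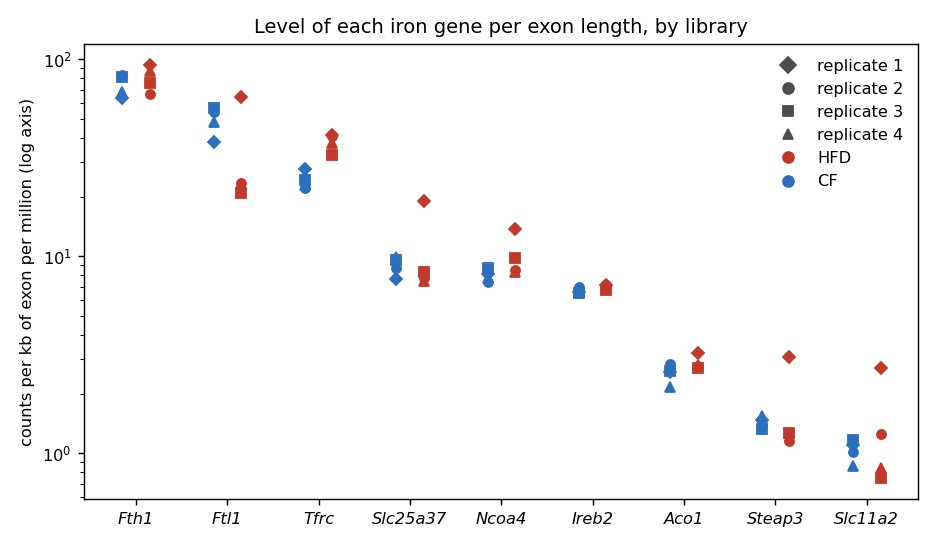
Level of each member per exon length (RPKM, logarithmic axis) in each library, with genes in order of their mean and CF (blue) left of HFD (red). The levels span from 0.747 RPKM for Slc11a2 to 94.0 RPKM for Fth1, and Tfrc spans 22.2 to 41.5 RPKM.

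To ask which genes varied like Tfrc apart from diet, each library's deviation from the mean of its diet was used, on the log2 CPM scale. Among 6659 other protein-coding genes with a mean of at least 10 CPM, Haus8, Yipf1, Arid3b, Fbxo11 and Ube4a were most like Tfrc, with Pearson's r of 0.95 to 0.99 over 8 libraries that share depth and preparation. They are the highest values of 6659 over few libraries, and whether they exceed chance was not tested. Haus8, a subunit of the augmin complex of the spindle, had r of 0.99 and 8.21 to 11.3 CPM in HFD and 9.43 to 12.7 CPM in CF. Fbxo11 encodes an F-box protein of a ubiquitin ligase and Ube4a a ubiquitin chain elongation factor, with r of 0.96 and 0.95. None of these 5 was called between the diets (log2 fold changes of -0.064 to 0.081; edgeR, adjusted p of 0.94 to 0.99). Scaled by library size alone, 2 of the 5 were again among the top 5, so this list depended on the scaling. The other members had r with Tfrc of -0.23 for Fth1 to 0.64 for Slc11a2, and the median of the genes compared was 0.043.

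The wider pathway was described with lists of iron uptake, storage, export, regulation, extracellular binding, mitochondrial and cytosolic iron-sulfur cluster assembly, and heme synthesis and breakdown. Of 94 genes other than Tfrc in these lists, 81 were tested and 0 were called by edgeR in either direction, with 4 higher and 0 lower at an unadjusted p below 0.05. Over all 15837 genes 0.423% were called, and 510 were higher and 845 lower at that p. DESeq2 called 1 of the 81, Bola3, and 64 higher and 503 lower of 15730 genes over all, and limma voom and the linear model for each gene called 0. Of the 81, 71.6% had a positive log2 fold change, against 59.7% of all genes tested and 64.6% of protein-coding genes. Their median was 0.17, against 0.055 for all genes and 0.070 for protein-coding genes, and without HFD replicate 1 it was 0.050. HFD replicate 1 held the highest value of all libraries for 53.1% of the 81 and for 26.5% of all genes tested.

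Bola3, which helps to pass iron-sulfur clusters to mitochondrial enzymes, had the lowest p of these lists. It had 6.16, 5.51, 4.62 and 6.07 CPM in HFD and 3.07, 4.10, 4.00 and 2.99 CPM in CF. The diets did not overlap, as they did not for 6.16% of all genes compared, 2.58% with HFD wholly above. Its log2 fold change was 0.66 (standard error 0.18; edgeR, adjusted p = 0.19, with 0.035 to 0.80 over its alternatives) and 0.61 without HFD replicate 1. Myc, a transcription factor known to act on Tfrc, had 34.9, 38.7, 51.0 and 52.6 CPM in HFD and 37.6, 27.4, 36.8 and 33.2 CPM in CF (log2 fold change 0.39, standard error 0.16; edgeR, adjusted p = 0.54; 0.49 without HFD replicate 1). Ndor1, of cytosolic cluster assembly, had 15.6 to 19.2 CPM in HFD, 7.09 to 8.68 CPM in CF replicates 2 to 4 and 17.9 CPM in CF replicate 1 (log2 fold change 0.68; edgeR, adjusted p = 0.51; 0.72 without HFD replicate 1). Abcg2, an exporter of porphyrins, had 5.54 to 11.9 CPM in HFD and 4.96 to 5.44 CPM in CF (0.57; edgeR, adjusted p = 0.53), and its value was 0.29 without HFD replicate 1. Zfp36 and Zc3h12a encode proteins that promote decay of mRNAs, and Tfrc is known as a target of both. Zfp36 had 161 CPM in HFD replicate 1, 30.6 to 42.2 CPM in the other HFD replicates and 66.9 to 160 CPM in CF (log2 fold change -0.87; edgeR, adjusted p = 0.78). Without HFD replicate 1, Zfp36 fell by 1.76 on the log2 scale (edgeR, adjusted p = 0.032), the only called gene of these lists besides Ftl1 in that comparison. Neutrophil markers moved with Zfp36 in part. CF replicate 1, the lowest CF library for Zfp36 at 66.9 CPM, was also the lowest for the neutrophil sum, and HFD replicates 3 and 4 were the lowest of all for both. HFD replicate 2 had less Zfp36 than CF replicate 1, 42.2 CPM, and a higher neutrophil sum, 3370 against 1970 CPM. None of the 13 neutrophil markers was called without HFD replicate 1 (edgeR, lowest adjusted p = 0.086), where 1.26% of all genes were called. With CF replicate 1 left out as well, 4 of the 13 (Cxcr2, Mmp8, Mmp9 and Retnlg) were called lower (edgeR, adjusted p of 0.0064 to 0.047). That comparison was chosen after the values were seen, and in it 350 of 15827 genes were called lower and 38 higher. The part of neutrophil RNA in the Zfp36 difference was not tested. Zc3h12a had 6.19 to 7.58 CPM in HFD and 4.63 to 7.07 CPM in CF (0.17; edgeR, adjusted p = 0.88; 0.12 without HFD replicate 1).

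Among further uptake genes, Hfe, a partner of the transferrin receptor, had 1.31 to 2.47 CPM in HFD and 2.02 to 3.34 CPM in CF (log2 fold change -0.56; edgeR, adjusted p = 0.68; -0.73 without HFD replicate 1). Steap4 was low in all libraries, with 0.283 to 1.73 CPM in HFD and 0.388 to 5.23 CPM in CF (-1.52; edgeR, adjusted p = 0.70; -2.0 without HFD replicate 1). Tfr2, the second transferrin receptor and an erythroid and liver gene, had 7.25 CPM in HFD replicate 1 and 0.752 to 1.70 CPM in all other libraries. The iron chaperones Pcbp1 and Pcbp2, which load ferritin, stayed at -0.020 and 0.016 (edgeR, adjusted p of 0.98 and 0.99). Slc40a1 (ferroportin), the iron exporter of macrophages, spread widely, with 72.9, 15.7, 5.90 and 3.81 CPM in HFD and 5.50, 23, 26.6 and 21.4 CPM in CF (0.36; edgeR, adjusted p = 0.96), and its sign turned without HFD replicate 1 (-1.18; edgeR, adjusted p = 0.44). Cp, a ferroxidase, was low, with 1.14 to 2.54 CPM in HFD and 1.24 to 2.29 CPM in CF (-0.17; edgeR, adjusted p = 0.95; -0.43 without HFD replicate 1). Trf, transferrin itself, had 19.6 to 24.5 CPM in HFD and 19.8 to 30.5 CPM in CF (-0.18; edgeR, adjusted p = 0.85; -0.15 without HFD replicate 1). Ltf (lactoferrin), a protein of neutrophil granules, had 1710 CPM in HFD replicate 1, 68.4 to 320 CPM in the other HFD replicates and 143 to 508 CPM in CF, so that its log2 fold change went from 0.54 to -1.23 without HFD replicate 1.

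Heme synthesis genes showed the same split by library. All 11 were highest in HFD replicate 1 and all 11 had a positive log2 fold change with a median of 0.38, while 0 were called (edgeR, 0 at an unadjusted p below 0.05). Over all genes 59.7% were positive, 0.423% were called and 8.56% had such a p. Alas2, the erythroid enzyme that starts the pathway, had 54.6 CPM in HFD replicate 1 and 9.87 to 16.2 CPM in all other libraries. Alad, the enzyme of the next step, had 22.5 CPM in HFD replicate 1 and 8.06 to 10.2 CPM in all other libraries. The list without HFD replicate 1 had 6 of 11 positive values and a median of 0.050. Mitochondrial import and cluster assembly had 16 of 22 positive values with a median of 0.19, and 15 of 22 with 0.14 without that library. Abcb10, a mitochondrial transporter needed for heme synthesis, had 51.1 CPM in HFD replicate 1 and 13.9 to 22 CPM in all other libraries. Cytosolic assembly had 7 of 11 with a median of 0.11, and 8 of 11 with 0.10. Narfl of that list had 7.96 to 11.3 CPM in HFD and 7.40 to 8.29 CPM in CF (0.25; edgeR, adjusted p = 0.74; 0.15 without HFD replicate 1). Of the biliverdin reductases of heme breakdown, Blvrb had 19.3 CPM in HFD replicate 1 and 2.17 to 7.67 CPM elsewhere, and Blvra had 5.40 to 6.92 CPM in HFD and 3.56 to 5.81 CPM in CF.

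**Figure D5:**
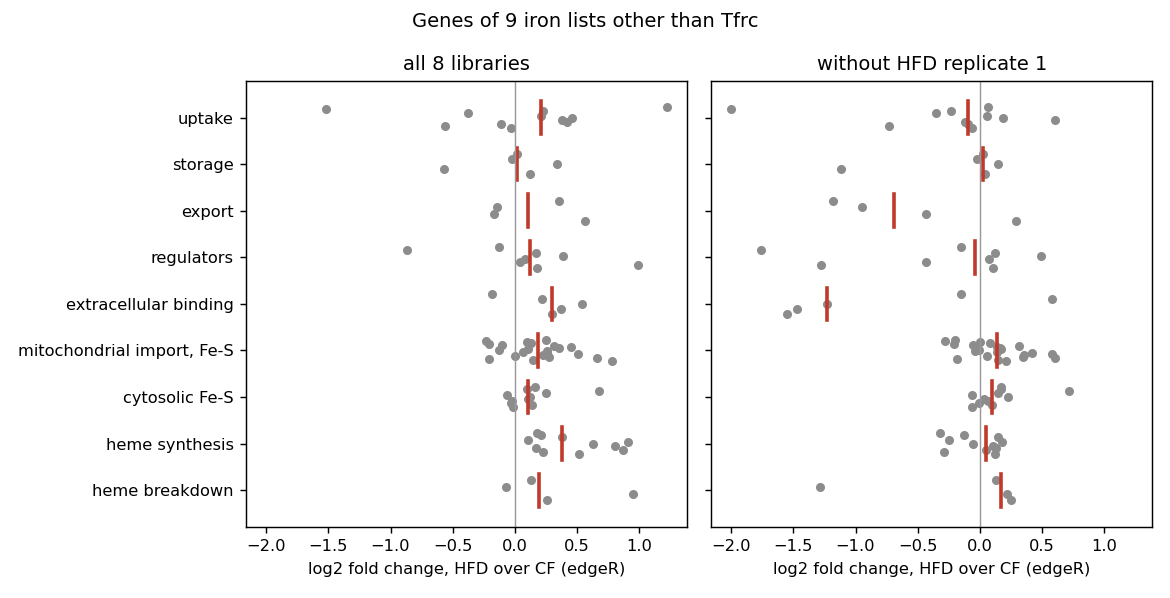
Log2 fold change, HFD over CF, of genes in the 9 iron lists other than Tfrc (grey points) with each list's median (red line), for all libraries and without HFD replicate 1. The median of heme synthesis moves from 0.38 to 0.050 and that of extracellular binding from 0.30 to -1.23, while mitochondrial import and cluster assembly stays at 0.19 and 0.14.

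Iron genes with a hairpin match in the 5′ UTR did not move together. Of genes with matches in the 5′ UTR, Fth1 had a log2 fold change of 0.12, Ftl1 of -0.57, Slc40a1 of 0.36 and Alas2 of 0.87, and none of these was called (edgeR, adjusted p of 0.75 to 0.96). These values without HFD replicate 1 were 0.045, -1.12, -1.18 and 0.050, and Ftl1 was called (edgeR, adjusted p = 0.018). Of the iron genes with matches in the 3′ UTR, Tfrc had 0.65 and Bola3 0.66, and both had 0.61 without that library. Bola3 was not called with all libraries (edgeR, adjusted p = 0.19). Since Tfrc was chosen on this contrast and Bola3 had the lowest p of the lists, nothing is read from their likeness. The part of the hairpins in these values was not tested. Bola3 is not among the textbook IRE genes, and its match was found by the search alone.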

How the data were processed

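CDP RNA of 4 HFD and 4 CF replicates was amplified with the NuGEN Ovation Solo system and sequenced in 75 bp pairs. The authors deposited raw counts per gene, made per the submitters' processing notes and the methods with FastQC, cutadapt, HISAT2 on GRCm38 and StringTie on GENCODE comprehensive genes, from uniquely mapped pairs. Versions, the annotation release and strandedness are not given in the sources used here. Columns were matched to replicates by sample number. GENCODE vM21, joined by gene ID, gave names, coordinates, exon lengths and transcript sequences for 16067 of 16119 genes. The lowest of the genes' highest counts was 29, so the table holds no gene below that.

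Counts were filtered (filterByExpr), scaled by TMM and tested with edgeR 4.0.16 (robust quasi-likelihood, diet as the only term, Benjamini-Hochberg over all genes, threshold 0.05) in R 4.3.3. Alternatives used DESeq2 1.42.0, limma 3.58.1, other scalings and filters, and left-out libraries. The study named Ballgown, whose form of test was run as a linear model on log2(CPM + 1). Log2 CPM used a prior count of 2. The fit was tested on simulated data. Slc11a2 was the least covered member, with 181 to 534 counts per library. The members and lists were chosen with earlier results of these data known. Named are the members, the 2 other genes of each iron list with the lowest p, any called gene, the 5 genes most like Tfrc and the 2 most abundant genes of marker lists, and Tfr2, Slc40a1, Zc3h12a and Alas2 were named after their values were seen. Some genes of the lists are not reported here by name. Python 3.11.15 with matplotlib 3.10.9 made the figures.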

Additional observations from a re-analysis of the deposited data

Results flagged for a closer look

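For 6 of 18 groups of 4 libraries looked at, 1 library lay far from the other 3, where chance gives about 1 in 20. HFD replicate 1 was the highest of its diet in Ftl1, with 86.5 CPM (28 to 31.5 CPM in the others), in Steap3, with 17.5 CPM (6.61 to 7.24 CPM), in Slc25a37, with 115 CPM (44.9 to 49.9 CPM), and in Aco1, with 14.6 CPM (12.2 to 12.6 CPM). This is the library with 919 CPM of erythroid and 18200 CPM of neutrophil markers. Ireb2 was lowest in HFD replicate 3, with 63.6 CPM (67.6 to 68.1 CPM), and highest in CF replicate 2, with 66.1 CPM (61.9 to 62.4 CPM), both small distances in a gene with little spread. In Tfrc, Fth1, Ncoa4 and Slc11a2 no library was that far from its group.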

How the results depend on the processing

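Tfrc stayed between 0.60 and 0.85 over 18 alternatives on the log2 scale; the highest value came from library size alone, and leaving out 1 library gave 0.61 to 0.72. The replicate numbers do not pair the libraries (same-numbered deviations correlated with r of -0.439 to -0.0779), and with the replicate number as a block Tfrc had 0.65 and 0 of the other 8 members and 0 of 81 iron genes were called; no library correlated best with its own number. With 1 library left out, 0 to 1 of the 8 members and 0 to 2 of the 81 iron genes were called, the highest counts without HFD replicate 1. DESeq2 called 1 of the 81 (Bola3). With HFD replicate 1 and CF replicate 1 both left out, an alternative chosen after seeing the data like the sums for Ftl1, edgeR called 1 member (Ftl1, -1.23, adjusted p = 0.0031) and 4 iron genes (Ftl1, Hmox1, Ndor1 and Zfp36). Of 146 member values, 136 kept direction and side of the threshold, 3 of Ftl1 became called and 7 changed sign. Without HFD replicate 1 these were Slc11a2 (-0.12, up to 0.63 with another library left out), Steap3 (-0.23, up to 0.37) and Slc25a37 (-0.20, up to 0.37), and without both libraries Slc11a2 (-0.095), Fth1 (-0.022), Steap3 (-0.22) and Slc25a37 (-0.27). The cause was not tested. The median of the 81 iron genes was 0.17, 0.36 by library size alone, when all genes shift as well, 0.10 by the linear model, 0.11 by voom and 0.050 to 0.22 with 1 library left out. Without HFD replicate 1 and CF replicate 1 it was 0.012, below the 0.033 of all genes. With the longest transcript as length 3 of 9 genes changed rank. Of the 5 genes most like Tfrc, 2 stayed under library size alone and 2 to 5 with 1 library left out. Over all genes edgeR called 0 higher and 67 lower, DESeq2 64 and 503, library size alone 10 and 98, and the linear model, the protein-coding genes alone and the replicate block 0 and 0. Without HFD replicate 1 it was 34 and 166, without HFD replicate 1 and CF replicate 1 38 and 350, without CF replicate 4 0 and 154, and without any other single library at most 1 in each direction.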
